A study of Mus musculus with 36 samples.

Results

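The genes described here carry glucose into cells, break it down to pyruvate, exchange lactate between cells, pass pyruvate into mitochondria and store glucose as glycogen. They were measured in RNA enriched for oligodendrocytes, the myelin-forming cells, and in the RNA left over from the same mouse forebrains, during sleep deprivation, waking and sleep. The list holds 35 genes chosen by name, and 1 probe set was taken per gene, the one with the highest mean over all arrays. A probe set naming 1 gene was found for 33 of them, out of 18194 genes with such a probe set in the whole series. All 33 were among the 13925 genes tested, and their means were above the filter on dim genes in both fractions. The expression of Gpi1 and Eno1 is not analysed here. Of the 33 genes, 19 had more than 1 probe set.

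The mice were adult C57BL/6 heterozygotes for Cnp-eGFP-L10a, so in every group the Cnp promoter, active in oligodendrocytes, drove a GFP-tagged ribosomal protein L10a. Each forebrain gave a bound array, made from RNA immunoprecipitated with the tagged ribosomes, and an unbound array, made from the supernatant. There were 6 animals in each of 3 states, 18 animals and 36 arrays in all. Sleep deprived mice had been awake for most of the dark phase and were then kept awake with unfamiliar objects for 4 h of the light period. Waking mice were taken in the dark between about 3 and 5 am and had been awake for 70% or more of the last 6 to 7 h. Sleeping mice were taken in the light between about 3 and 5 pm and had slept for 75% or more of such a window. Waking and sleep therefore cannot be told apart from time of day. The same holds for sleep deprivation and waking, because the deprivation fell in the light period and waking mice were taken in the dark. No clock time is given here for the sleep deprived mice. Precision is set by the 6 animals of a group.

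As background, neurons and glia share fuel in the brain. Glucose enters through transporters of the Slc2a family, glycolysis turns it into pyruvate, and lactate dehydrogenase interconverts pyruvate and lactate. Monocarboxylate transporters of the Slc16a family move lactate across membranes. Oligodendrocytes wrap axons, and Slc16a1 (MCT1) in these cells is known for supplying lactate to the axon. Pyruvate dehydrogenase kinases switch off the entry of pyruvate into mitochondrial oxidation. Glycogen in the brain is stored mainly in astrocytes.

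Oligodendrocyte markers checked the fractions: 12 of 12 tested were higher in the bound arrays, while 11 of 11 neuron, 10 of 10 astrocyte and 9 of 9 tested microglia markers were lower. Endothelial markers were mixed, with 1 of 4 tested higher (Kdr, 2.59 log2) and 3 lower, as were those of oligodendrocyte precursors, with 3 of 6 higher and 3 lower. The unbound arrays also held oligodendrocyte messages, with a marker mean of 9.05 to 9.76 log2 over the 3 states. The bound arrays still held neuron messages, with a neuron marker mean of 10.45 to 10.96 log2 in sleep deprived, 10.58 to 10.89 in waking and 10.43 to 11.00 in sleeping animals. The mean over an array varied little among animals of a group (SD 0.002933 to 0.009939 log2) but was 6.41, 6.34 and 6.40 log2 in the unbound arrays of sleep deprived, waking and sleeping animals. The sources used here do not say whether the arrays of all groups were normalized together, and the unbound comparisons with waking depend on it. The Gapdh 3′ minus 5′ signal, which grows as RNA degrades or is copied incompletely, was 1.15 to 1.48 log2 in unbound waking arrays, above 0.9991 to 1.10 in sleep deprived and 1.02 to 1.08 in sleep arrays. The same difference for Actb was −0.2797 to −0.1716 log2 in all 6 bound sleep deprived arrays, outside the −0.1677 to −0.0252 log2 of bound waking and the −0.1372 to −0.01294 log2 of bound sleep arrays. It lies beside every bound comparison with sleep deprivation below, and its part in them was not tested. Waking animals 3 and 5 and sleep deprived animal 11 were set apart by sex-linked genes.

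Most members were lower in the bound than in the unbound arrays, and members of the same family went both ways. A gene is called here at a Benjamini-Hochberg adjusted p below 0.05 in limma, over all 13925 genes of a comparison. Of the 33 genes, 7 (21.2%) were higher and 25 (75.8%) lower in the bound arrays, beside 25.6% and 58.2% of all genes. Only Gbe1, the glycogen branching enzyme, was not called (0.02 ± 0.14 log2, SE, n = 18 animals, adjusted p = 0.872). The median over the list was −0.54 log2, and that over all genes −0.35 log2. After quantile normalization over all 36 arrays the median of all genes was 0.08 log2. In that setting 9 members were higher and 22 lower, beside 6194 higher and 5330 lower of the 13932 genes tested. Gbe1 was then called in limma as higher in bound arrays (0.64 log2, adjusted p = 0.000253). Both fractions came from the same forebrains, so a difference between them is not a difference in the number of cells. How much the RNA of other cells left in the bound arrays adds to it was not tested. Between states, fewer cells of a type and less RNA per cell cannot be told apart in either fraction.

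**Figure D1:**
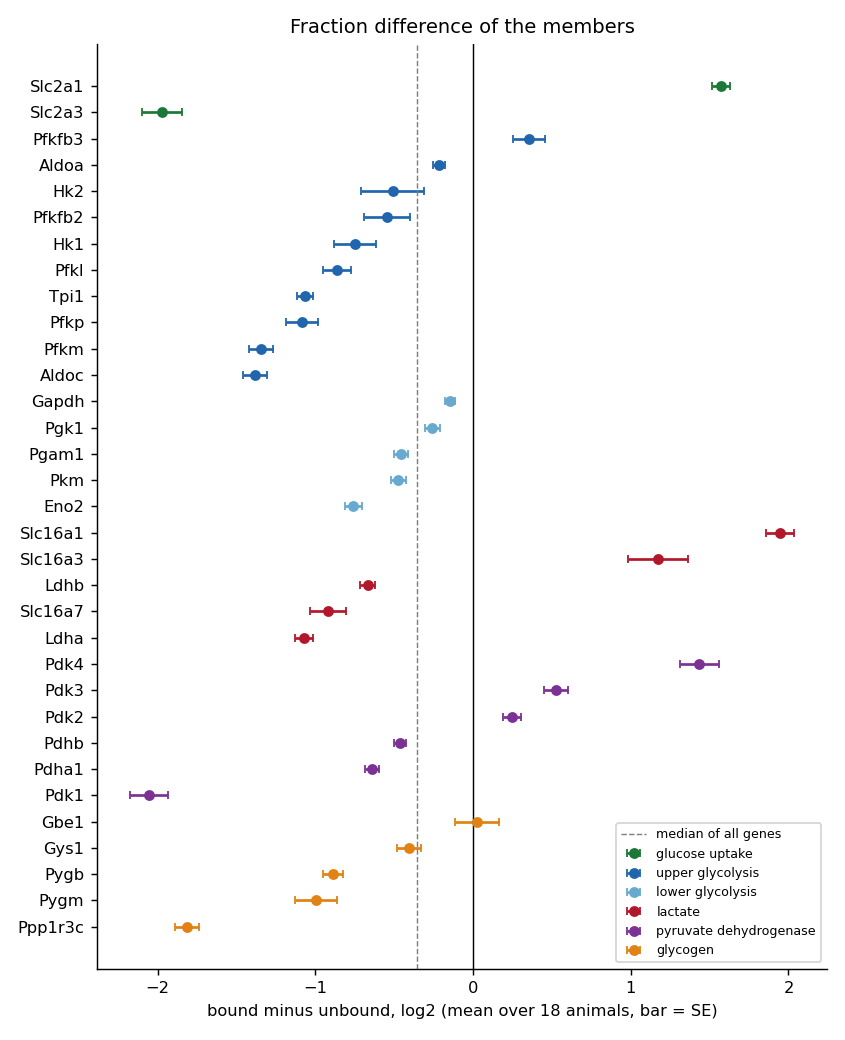
Bound minus unbound log2 signal of the 33 measured genes, grouped by role. Points are means over 18 animals with SE, the solid line marks 0 and the dashed line the median of all genes at −0.35 log2; Slc16a1, Slc2a1, Pdk4 and Slc16a3 lie farthest to the right, Pdk1, Slc2a3 and Ppp1r3c farthest to the left.

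The glucose transporters split. Slc2a1 (GLUT1), the transporter of the blood-brain barrier and of glia, had 12.16, 12.42 and 12.62 log2 as lowest, median and highest of 18 bound arrays, against 10.41, 10.90 and 11.15 log2 in the unbound arrays. No bound array overlapped the unbound range, and the difference was 1.57 ± 0.06 log2 (adjusted p = 8.02e-15). Slc2a3 (GLUT3), the neuronal transporter, had 8.35, 9.39 and 10.31 log2 in bound arrays, against 10.98, 11.41 and 11.64 log2 in unbound arrays. It was lower by −1.97 ± 0.13 log2 (adjusted p = 3.66e-11), again without overlap. Within an animal, the fraction difference of Slc2a3 minus that of Slc2a1 was −3.545 ± 0.64 log2 (SD), below 0 in 18 of 18 animals.

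The lactate transporters split as well. Slc16a1 was the member with the largest positive difference, with 9.98, 10.44 and 11.07 log2 in bound arrays, against 7.38, 8.58 and 9.18 log2 in unbound arrays (1.95 ± 0.09 log2, adjusted p = 2.25e-13). Slc16a3 (MCT4), known as the exporter of glycolytic cells such as astrocytes, was also higher in bound arrays (1.17 ± 0.19 log2, adjusted p = 1.31e-05). Its 2 ranges overlapped, 4.80 to 7.75 log2 against 4.81 to 6.21 log2, and 16 of 18 animals had the higher value in the bound array. The unbound mean of Slc16a3, 5.32 log2, was close to the unbound floor of 5.18 log2 used by the filter on dim genes. Slc16a7 (MCT2), the high-affinity importer of neurons, was lower by −0.92 ± 0.11 log2 (adjusted p = 4.6e-07). Within an animal its fraction difference minus that of Slc16a1 was −2.87 ± 0.64 log2 (SD), below 0 in 18 of 18 animals. Both lactate dehydrogenase subunits were lower in bound arrays. Ldha, the muscle-type subunit, was at −1.07 ± 0.06 log2 and Ldhb, the heart-type subunit, at −0.67 ± 0.05 log2. The fraction difference of Ldha minus that of Ldhb was −0.40 ± 0.22 log2 (SD), below 0 in 18 of 18 animals.

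Of the 4 pyruvate dehydrogenase kinases, 3 were higher in bound arrays and 1 was lower. Pdk4, the isoform that rises in fasting and with glucocorticoids, was at 1.44 ± 0.12 log2 (adjusted p = 2e-09), Pdk3 at 0.53 ± 0.08 log2 and Pdk2 at 0.25 ± 0.06 log2. Pdk1 was the lowest of all members at −2.05 ± 0.12 log2 (adjusted p = 8.76e-12). The fraction difference of Pdk1 minus that of Pdk4 was −3.49 ± 0.94 log2 (SD), below 0 in 18 of 18 animals. The enzyme they act on was lower too, with its subunit genes Pdha1 at −0.64 ± 0.04 and Pdhb at −0.47 ± 0.04 log2.

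Glycolytic enzymes were lower in bound arrays with 1 exception. The exception was Pfkfb3, which makes the activator of phosphofructokinase (0.35 ± 0.10 log2, adjusted p = 0.00379). Aldoc, the aldolase of astrocytes, was at −1.39 ± 0.08 log2, whereas the broadly expressed Aldoa was at −0.22 ± 0.04 log2. The 3 phosphofructokinase subunits Pfkm, Pfkp and Pfkl were at −1.35 ± 0.07, −1.08 ± 0.10 and −0.86 ± 0.09 log2. Hexokinase 1 and 2 stood at −0.75 ± 0.13 and −0.51 ± 0.20 log2, and Hk2 was not called without the 3 animals set apart (adjusted p = 0.0582). The lower part of the pathway ran from −0.76 ± 0.05 log2 for Eno2, the neuronal enolase, to −0.15 ± 0.03 log2 for Gapdh. Among glycogen genes, Ppp1r3c, which brings protein phosphatase to glycogen, was lowest at −1.81 ± 0.08 log2. The phosphorylases Pygm and Pygb were at −0.99 ± 0.13 and −0.89 ± 0.06 log2, and glycogen synthase Gys1 at −0.41 ± 0.08 log2. Gys1 turned to 0.28 log2, and Hk2 to 0.05 log2, after quantile normalization over all 36 arrays.

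The spread among animals of a group differed between members. The pooled within-group SD over the 33 genes had a median of 0.2495 log2 in bound and 0.1746 log2 in unbound arrays. It was smallest for Gapdh, at 0.0679 and 0.0308 log2, and largest for Hk2 in bound arrays at 0.798 log2 and for Pdk4 in unbound arrays at 0.639 log2.

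Between states, few members changed, and the list as a whole was called about as often as all genes. In bound sleep deprivation against sleep, 3 of 33 members (9.09%) were higher and 3 (9.09%) lower, beside 7.53% and 6.87% of all genes. In bound waking against sleep, limma called 0 higher and 2 (6.06%) lower, beside 4.68% and 4.79%; 5 were higher at an unadjusted p below 0.05. The medians over the list were 0.02 and 0.03 log2, against −0.01 log2 for all genes in both. Both comparisons share the sleep arrays.

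**Figure D2:**
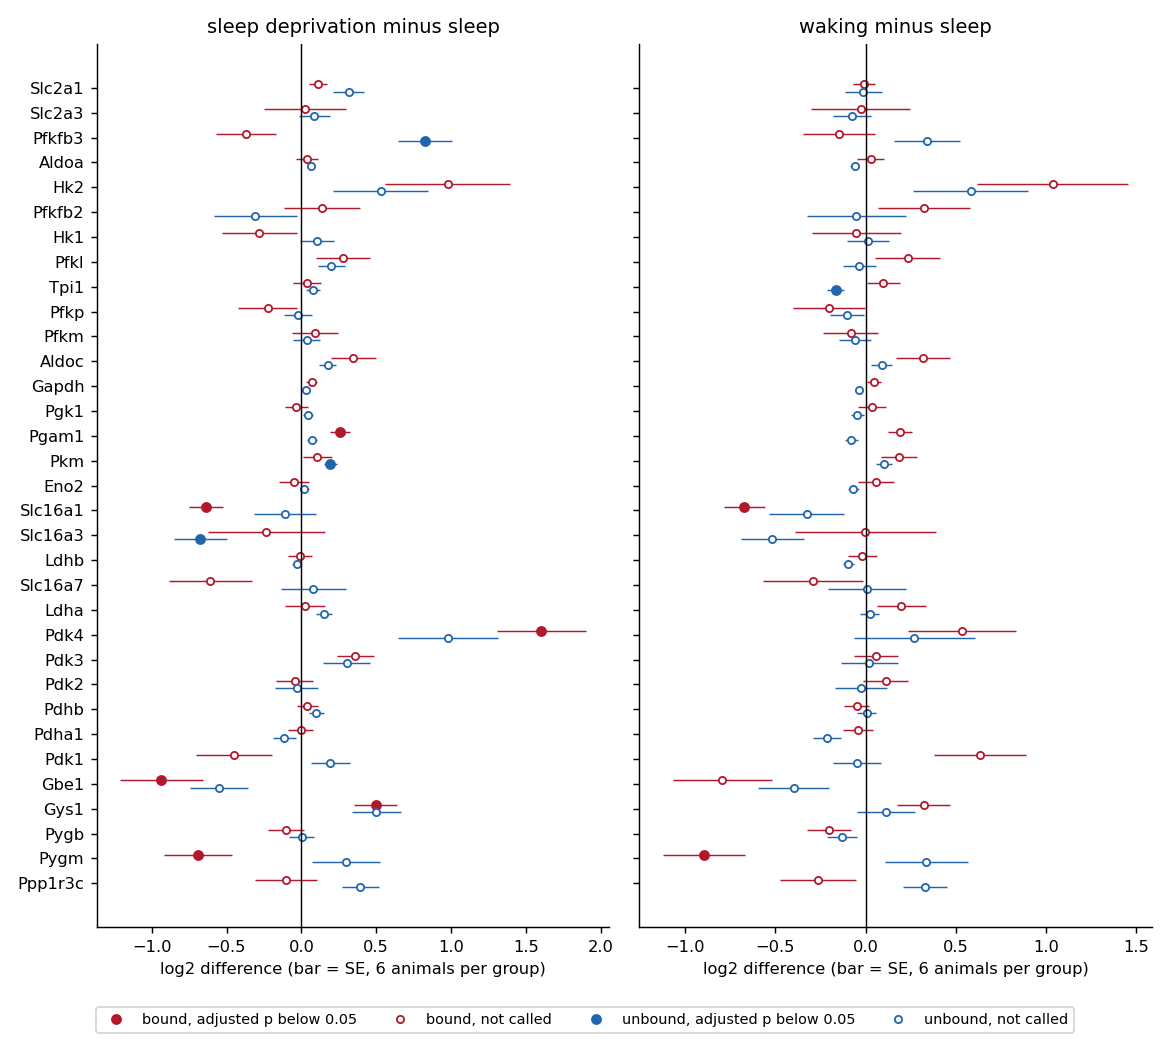
Log2 difference of each of the 33 genes for sleep deprivation minus sleep (left) and waking minus sleep (right), in bound (red) and unbound (blue) arrays, with SE and 6 animals per group. Filled points are called; Slc16a1 and Pygm are filled in the bound arrays of both panels, Pdk4 reaches 1.60 log2 in the left panel.

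Slc16a1 was lower in the bound arrays of both groups of awake animals. Its lowest, median and highest values were 9.98, 10.32 and 10.56 log2 in sleep deprived, 9.99, 10.22 and 10.55 log2 in waking and 10.76, 10.93 and 11.07 log2 in sleeping animals. Neither group of awake animals overlapped the sleeping group. The difference from sleep was −0.64 ± 0.11 log2 for sleep deprivation (1.56-fold lower, SE, n = 6 per group, adjusted p = 0.000887) and −0.67 ± 0.11 log2 for waking (1.59-fold lower, adjusted p = 0.00118). Sleep deprived and waking animals did not differ beyond their spread (0.03 log2, 95% interval −0.21 to 0.27). In unbound arrays the differences were −0.11 ± 0.21 and −0.33 ± 0.21 log2 (adjusted p = 0.808 and 0.361). The difference between the fractions was itself not called, at −0.53 log2 (95% interval −0.98 to −0.07, adjusted p = 0.162) for sleep deprivation and −0.35 log2 (−0.80 to 0.11, adjusted p = 0.389) for waking.

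The second probe set of Slc16a1 was dim, averaging 5.54 log2 in bound and 4.49 log2 in unbound arrays, and did not follow the first. It stood at 0.39 log2 for bound sleep deprivation minus sleep (adjusted p = 0.358) and −0.22 log2 for bound waking minus sleep (adjusted p = 0.656). With the mean of both probe sets neither call was kept (−0.12 log2, adjusted p = 0.622, and −0.45 log2, adjusted p = 0.0623). The mean over the oligodendrocyte markers was slightly lower in both awake groups: it was 12.30 to 12.43 log2 in sleep deprived, 12.29 to 12.42 in waking and 12.45 to 12.48 in sleeping animals. The median change of the 12 markers was 0.01 log2 in sleep deprivation and −0.08 log2 in waking. The part of the markers in the result was not tested. Of these 12 markers, 3 were called higher and 3 lower in sleep deprivation, and 1 higher and 4 lower in waking.

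The 250 bases before the start of Slc16a1 (RefSeq, GRCm38.p6, chr3:104638414-104638663, plus strand) are shown because they hold the letters CACGTG, a motif bound by clock and hypoxia factors among others, here in capitals 200 bases before the start.
Slc16a1: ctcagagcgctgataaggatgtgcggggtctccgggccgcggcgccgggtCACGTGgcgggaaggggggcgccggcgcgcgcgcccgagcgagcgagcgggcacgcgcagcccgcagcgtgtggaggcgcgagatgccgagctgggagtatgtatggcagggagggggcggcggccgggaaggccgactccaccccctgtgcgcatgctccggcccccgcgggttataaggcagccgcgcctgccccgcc
Motifs were searched on both strands in 32851 RefSeq promoters of this length. CACGTG was in 6.02% of all promoters and in 7 of the 49 promoters of the 33 listed genes that matched, which include Gpi1 and Eno1 but not Slc2a3 and Slc16a7. The shorter ACGTG, which lies inside CACGTG, was in 16.6% of all and in 22 of 49. TGTTTAC, bound by FOXO factors, was in 3.17% and in 1 of 49. The glucocorticoid receptor motif, searched as GNACA, any 3 bases and TGTNC, was in 0.387% and in 0 of 49. These matches describe the letters only.

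Pdk4 changed most among the members. In bound arrays it had 9.20, 10.79 and 11.26 log2 in sleep deprived, 8.90, 9.43 and 9.81 log2 in waking and 8.37, 8.98 and 9.26 log2 in sleeping animals. Sleep deprived animal 7, at 9.20 log2, lay within the sleeping and waking ranges and animal 10, at 9.60 log2, within the waking range, with the other 4 above both. Animal 10 also had the highest Gapdh 3′ minus 5′ signal of the bound arrays (1.787 log2), whose part was not tested. The rise of Pdk4 over sleep was 1.60 ± 0.30 log2 (3.04-fold, adjusted p = 0.00138). Against waking it was 1.07 ± 0.30 log2 (adjusted p = 0.0441), a call that 4 alternatives ended (adjusted p = 0.0501 to 0.151). Waking minus sleep was 0.53 ± 0.30 log2 (adjusted p = 0.283). In unbound arrays Pdk4 had 8.19, 8.59 and 9.71 log2 in sleep deprived and 6.28, 7.94 and 8.67 log2 in sleeping animals, a difference of 0.98 ± 0.33 log2 that was not called (adjusted p = 0.0788). The difference between fractions was 0.62 ± 0.30 log2 (adjusted p = 0.237).

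The promoter of Pdk4 (RefSeq, GRCm38.p6, chr6:5496279-5496528, minus strand) is printed because the gene is known as a glucocorticoid and FOXO target, and it held 0 of the 4 motifs.
Pdk4: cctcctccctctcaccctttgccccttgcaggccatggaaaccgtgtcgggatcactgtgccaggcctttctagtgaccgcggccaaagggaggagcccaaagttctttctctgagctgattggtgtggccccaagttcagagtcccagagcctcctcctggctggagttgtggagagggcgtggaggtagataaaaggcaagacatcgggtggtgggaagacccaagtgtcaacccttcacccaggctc
No match says only that these letters are not in this window.

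**Figure D3:**
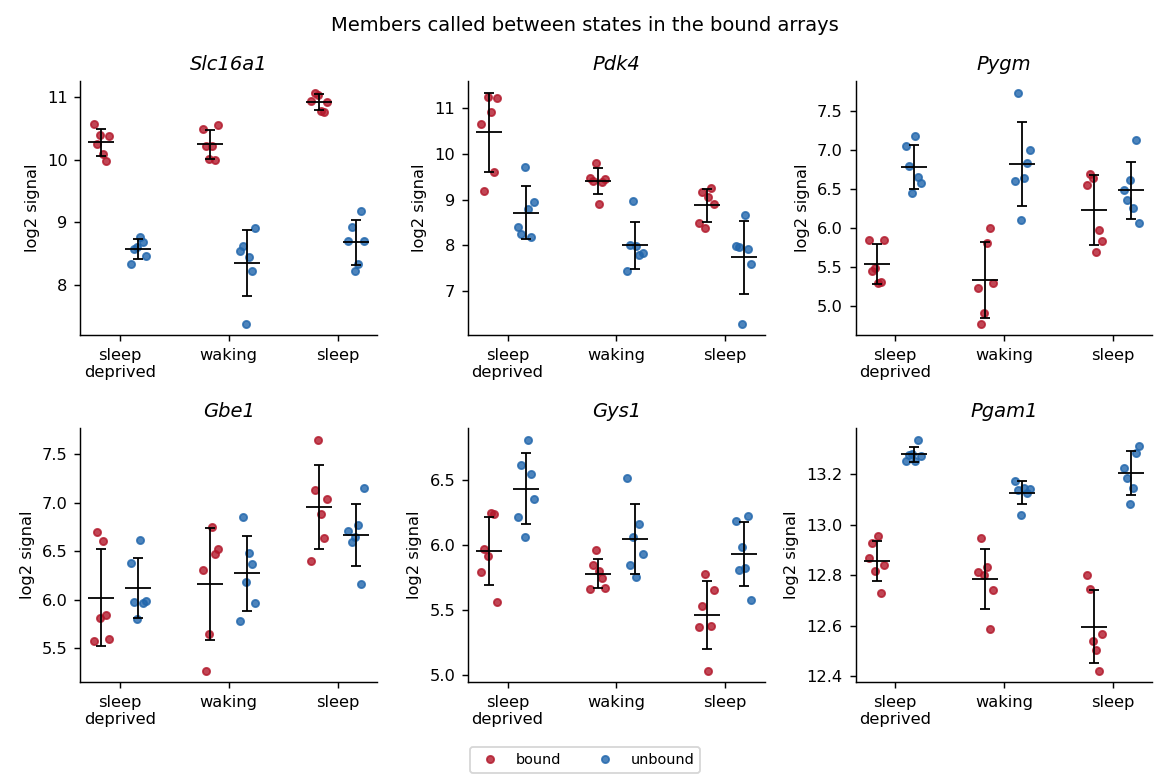
Log2 signal of Slc16a1, Pdk4, Pygm, Gbe1, Gys1 and Pgam1 in each animal, in bound (red) and unbound (blue) arrays of sleep deprived, waking and sleeping mice; bars are mean ± SD of 6 animals. Bound Slc16a1 is at or below 10.56 log2 in all 12 awake animals and at or above 10.76 log2 in the 6 sleeping animals.

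Among glycogen genes, Pygm and Gbe1 were lower and Gys1 was higher in bound arrays after sleep deprivation. Pygm, the muscle-type phosphorylase that releases glucose units and is also made by astrocytes, had 5.30, 5.47 and 5.85 log2 in sleep deprived, 4.77, 5.25 and 6.00 log2 in waking and 5.69, 6.26 and 6.70 log2 in sleeping animals. Of the 6 sleeping animals, 2 lay within the sleep deprived range and 3 within the waking range. Pygm was lower by −0.69 ± 0.23 log2 in sleep deprivation (adjusted p = 0.0466) and by −0.90 ± 0.23 log2 in waking (adjusted p = 0.0173). The first of these calls was lost under both quantile normalizations (adjusted p = 0.0618 and 0.0581). In unbound arrays it stood at 0.30 and 0.34 log2, not called. The test of the difference between fractions gave −1.23 ± 0.33 log2 for waking (adjusted p = 0.0328) and −0.99 ± 0.33 log2 for sleep deprivation (adjusted p = 0.0787).

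Gbe1 had 5.58, 5.83 and 6.70 log2 in bound arrays of sleep deprived and 6.39, 6.96 and 7.65 log2 in those of sleeping animals. The fall was −0.93 ± 0.28 log2 (1.91-fold lower, adjusted p = 0.0278), and it was not called without the 3 animals set apart (−0.85 log2, adjusted p = 0.0666). In sleep deprived animals 7 and 9, at 6.70 and 6.60 log2, it overlapped the sleeping group. The bound mean of Gbe1 was also lower in waking animals, 6.16 log2 against 6.95 log2 in sleep, but was not called. Its unbound mean was 6.12 log2 in sleep deprived, 6.27 log2 in waking and 6.67 log2 in sleeping animals, also without a call. Gys1 had 5.56, 5.94 and 6.24 log2 in sleep deprived and 5.03, 5.46 and 5.78 log2 in sleeping animals, higher by 0.50 ± 0.15 log2 (adjusted p = 0.0282). In unbound arrays the same comparison of Gys1 gave 0.50 ± 0.16 log2 (adjusted p = 0.0633). Its second, dimmer probe set stood at 0.26 log2 in bound arrays (adjusted p = 0.412). Pygb, the brain-type phosphorylase, and Ppp1r3c were not called between states in either fraction.

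The promoter of Pygm (RefSeq, GRCm38.p6, chr19:6384158-6384407, plus strand) holds ACGTG on the opposite strand 61 bases before the start, in capitals as CACGT. It is given because Pygm is the second gene called lower in the bound arrays of both groups of awake animals.
Pygm: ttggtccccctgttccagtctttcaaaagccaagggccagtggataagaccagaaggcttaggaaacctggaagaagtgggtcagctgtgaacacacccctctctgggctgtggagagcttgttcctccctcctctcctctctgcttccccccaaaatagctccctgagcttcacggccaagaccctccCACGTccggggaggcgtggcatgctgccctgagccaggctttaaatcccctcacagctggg

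Within glycolysis itself, the single bound call was Pgam1, phosphoglycerate mutase. It had 12.73, 12.86 and 12.96 log2 in sleep deprived and 12.42, 12.55 and 12.80 log2 in sleeping animals, a rise of 0.26 ± 0.07 log2 (1.20-fold, adjusted p = 0.0115) with overlap at the edge. Hk2, the inducible hexokinase, had larger but scattered differences in bound arrays. Its values were 5.52, 7.15 and 8.07 log2 in sleep deprived, 6.20, 6.90 and 7.57 log2 in waking and 5.09, 5.81 and 6.93 log2 in sleeping animals. It was not called at 0.98 ± 0.42 log2 for sleep deprivation and 1.04 ± 0.42 log2 for waking (adjusted p = 0.129 for both).

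Bound sleep deprivation against waking called 1 member higher (3.03%), Pdk4, and 1 lower (3.03%), Pdk1, beside 2.69% and 2.32% of all genes. Pdk1 had 6.23, 7.47 and 7.93 log2 in sleep deprived and 7.85, 8.51 and 8.98 log2 in waking animals. Only the highest sleep deprived and the lowest waking animal overlapped, and the difference was −1.08 ± 0.25 log2 (adjusted p = 0.0171). The other 2 probe sets of Pdk1 did not show it, at −0.23 log2 (adjusted p = 0.865) and 0.20 log2 (adjusted p = 0.775). The mean of the 3 probe sets gave −0.18 log2 and was not called. Without the 3 animals set apart, neither Pdk1 (adjusted p = 0.062) nor Pdk4 (adjusted p = 0.151) was called. The difference between the fractions for Pdk1 was −1.32 ± 0.29 log2 (adjusted p = 0.0152), and it was 0.39 and 0.26 log2 in the other 2 probe sets. For the same difference 1 of 10 astrocyte markers was called lower (Gjb6, −1.32 log2) and 0 higher. Their median was −0.30 log2, beside −0.10 log2 over all genes. The astrocyte marker mean in bound arrays was 6.70 to 7.83 log2 in sleep deprived and 7.12 to 7.94 log2 in waking animals. Its part in the Pdk1 results was not tested.

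In unbound arrays, sleep deprivation against sleep gave 2 members higher (6.06%) and 1 lower (3.03%), beside 4.65% and 3.17% of all genes. Pfkfb3 had 7.95, 8.87 and 9.19 log2 in sleep deprived and 7.64, 7.89 and 8.25 log2 in sleeping animals. Sleep deprived animal 11, at 7.95 log2, lay within the sleeping range and the other 5 above it. The rise was 0.83 ± 0.18 log2 (1.77-fold, adjusted p = 0.00823). In bound arrays Pfkfb3 stood at −0.37 ± 0.20 log2 (adjusted p = 0.234), and the test of the difference between fractions gave −1.19 ± 0.25 log2 (adjusted p = 0.00695). Within an animal, bound minus unbound Pfkfb3 had −0.85, −0.10 and 0.10 log2 as lowest, median and highest in sleep deprived, −0.08, 0.29 and 1.52 log2 in waking and 0.40, 0.96 and 1.38 log2 in sleeping animals. It was above 0 in 1 of 6 sleep deprived, 4 of 6 waking and 6 of 6 sleeping animals. Its second probe set gave 0.55 log2 in unbound arrays (adjusted p = 0.316) and −0.57 log2 for the difference between fractions (adjusted p = 0.497).

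One of the promoters of Pfkfb3 (RefSeq, GRCm38.p6, chr2:11502091-11502340, minus strand) is shown for its CACGTG, in capitals 53 bases before the start.
Pfkfb3: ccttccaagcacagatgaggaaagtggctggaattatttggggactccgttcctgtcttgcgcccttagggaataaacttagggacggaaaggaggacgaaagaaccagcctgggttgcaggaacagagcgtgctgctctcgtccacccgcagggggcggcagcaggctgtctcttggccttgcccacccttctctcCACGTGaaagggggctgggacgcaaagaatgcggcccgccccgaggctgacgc

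Pkm, the pyruvate kinase of brain, was the other member that rose in unbound arrays. It had 12.68, 12.75 and 12.85 log2 in sleep deprived and 12.43, 12.58 and 12.65 log2 in sleeping animals, with no overlap. The rise was 0.19 ± 0.04 log2 (adjusted p = 0.0104), and it missed the threshold after quantile normalization over all arrays (adjusted p = 0.0512) and without the intensity trend (adjusted p = 0.0725). Slc16a3 fell, with 4.81, 4.97 and 5.47 log2 in sleep deprived and 4.89, 5.79 and 6.21 log2 in sleeping animals. The groups overlapped through sleeping animal 1 at 4.89 log2, and the difference was −0.67 ± 0.18 log2 (adjusted p = 0.022). Of the 6 sleep deprived values of Slc16a3, 5 lay below the unbound floor of 5.18 log2 used by the filter. Beside these results, the astrocyte marker mean was 9.48 to 9.68 log2 in sleep deprived and 9.29 to 9.37 log2 in sleeping animals of the unbound arrays, and its part in them was not tested.

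**Figure D4:**
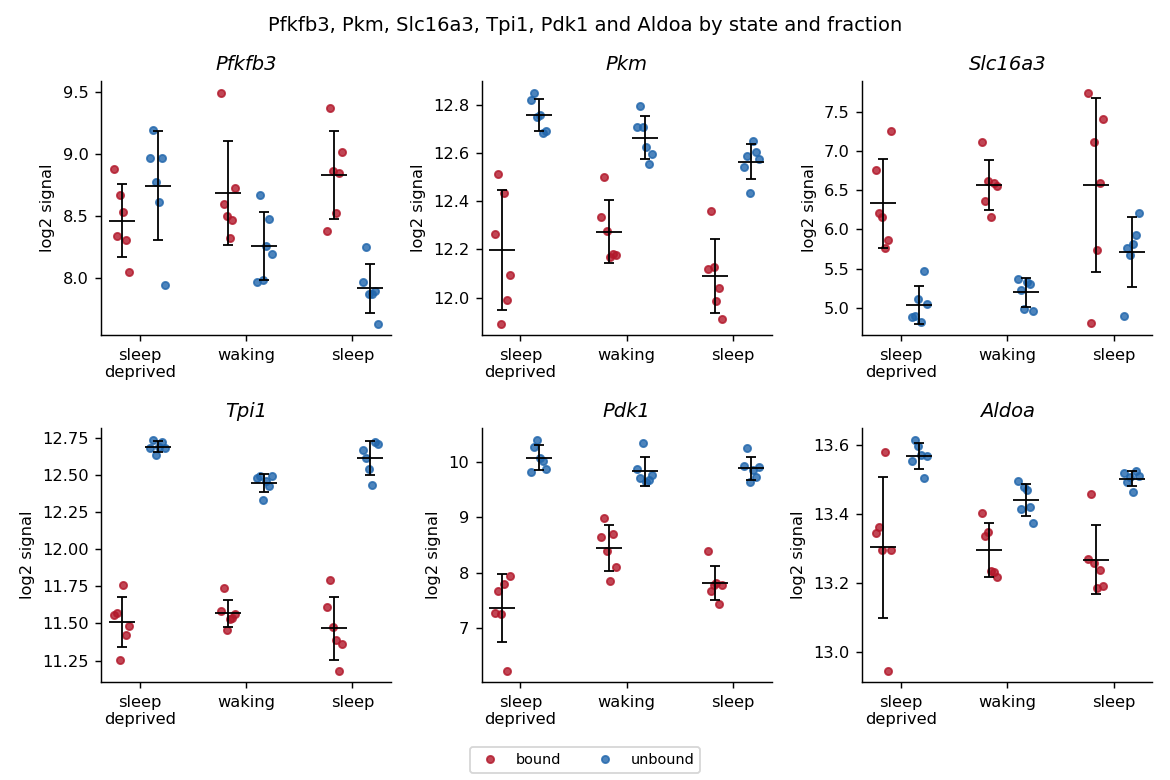
Log2 signal of Pfkfb3, Pkm, Slc16a3, Tpi1, Pdk1 and Aldoa in each animal, in bound (red) and unbound (blue) arrays of sleep deprived, waking and sleeping mice; bars are mean ± SD of 6 animals. Unbound Pkm of the sleep deprived group lies above the sleeping group, and unbound Tpi1 and Aldoa of the sleep deprived group lie above the waking group.

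The unbound comparisons with waking moved with the whole array. Sleep deprivation against waking called 4 members higher (12.1%) and 0 lower, beside 8.47% and 1.49% of all genes; 14 were higher and 0 lower at an unadjusted p below 0.05. The median was 0.09 log2 over the list and 0.11 log2 over all genes. Tpi1, triosephosphate isomerase, had 12.63, 12.68 and 12.74 log2 in sleep deprived and 12.33, 12.47 and 12.49 log2 in waking animals, a rise of 0.24 ± 0.04 log2 without overlap (adjusted p = 0.00267). The other 2 probe sets of Tpi1 rose too, by 0.23 and 0.17 log2 (adjusted p = 0.0204 and 0.0221). Aldoa had 13.506, 13.57 and 13.62 log2 in sleep deprived and 13.37, 13.44 and 13.495 log2 in waking animals, higher by 0.13 ± 0.02 log2 without overlap (adjusted p = 0.00345). Of the other 4 probe sets of Aldoa, 2 were called higher, 1 was not called at 0.07 log2 and 1 turned sign at −0.0859 log2 (adjusted p = 0.652). Pgam1 had 13.25, 13.27 and 13.34 log2 in sleep deprived and 13.04, 13.14 and 13.17 log2 in waking animals, higher by 0.15 ± 0.03 log2, again without overlap (adjusted p = 0.0102). Gapdh, the dehydrogenase often used as a reference transcript, had 13.89, 13.95 and 13.96 log2 in sleep deprived and 13.82, 13.88 and 13.91 log2 in waking animals. Its groups overlapped, and it was higher by 0.07 ± 0.02 log2 (adjusted p = 0.0459). Relative to the median of all genes these were 0.13 log2 for Tpi1, 0.02 for Aldoa, 0.04 for Pgam1 and −0.05 for Gapdh. None of the 4 was called after quantile normalization over all 36 arrays or within the fraction (0.02 to 0.13 log2, adjusted p = 0.0825 to 0.669).

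In unbound waking against sleep, limma called 0 members higher and 1 (3.03%) lower, beside 1.49% and 5.72% of all genes; 2 were higher and 6 lower at an unadjusted p below 0.05. The 1 call was Tpi1, with 12.33, 12.47 and 12.49 log2 in waking and 12.43, 12.64 and 12.72 log2 in sleeping animals (−0.17 ± 0.04 log2, adjusted p = 0.028). The median of all genes was −0.09 log2, relative to which Tpi1 stood at −0.08 log2. After either quantile normalization Tpi1 was not called (adjusted p = 0.165 and 0.156) and Pkm was, as higher by 0.16 and 0.17 log2, so that the split was 1 higher and 0 lower. The higher Gapdh 3′ minus 5′ signal of the unbound waking arrays lies beside both comparisons, and its part was not tested.

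Whether a state change differed between the fractions was tested for each gene. For sleep deprivation minus sleep 0 members were higher and 1 (3.03%) lower, Pfkfb3, beside 3.27% and 3.23% of all genes. For waking minus sleep 0 were higher and 1 (3.03%) lower, Pygm, beside 4.11% and 1.47%. For sleep deprivation minus waking 0 were higher and 1 (3.03%) lower, Pdk1, beside 1.34% and 3.48%. At an unadjusted p below 0.05 limma had 0, 3 and 0 members higher and 6, 2 and 4 lower in the 3 tests.

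Calls in the wider pathway are read against the same shares of all genes. Among 14 further glycolysis genes tested, 1 was higher (7.14%) and 2 were lower (14.3%) in bound sleep deprivation against sleep, beside 7.53% and 6.87% of all genes: the hexokinase Hk3 at 0.60 ± 0.12 log2, the hexokinase-like Hkdc1 at −0.73 ± 0.19 and Pfkfb4, a relative of Pfkfb3, at −0.78 ± 0.24. In bound waking against sleep 2 (14.3%) were lower and 0 higher, beside 4.79% and 4.68% of all genes. The lower genes were Hkdc1 at −0.80 ± 0.19 log2 and the fructose bisphosphatase Fbp2 at −0.35 ± 0.10. At an unadjusted p below 0.05 limma had 2 higher. In unbound arrays Hk3 had the opposite sign, at −0.56 ± 0.13 log2 in sleep deprivation and −0.52 ± 0.13 in waking against sleep. The difference between fractions for Hk3 was called at 1.16 ± 0.14 log2 (adjusted p = 0.000117) and 0.90 ± 0.14 log2 (adjusted p = 0.00167). Pgm2, a phosphoglucomutase, fell in unbound sleep deprivation against sleep (−1.36 ± 0.32 log2, adjusted p = 0.0119).

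Of 11 further transport genes, 1 (9.09%) was lower in bound sleep deprivation and in bound waking against sleep. The shares of all genes were 6.87% and 4.79%. The gene was the intracellular glucose transporter Slc2a8 at −0.62 ± 0.18 and −0.59 ± 0.18 log2. In bound sleep deprivation against waking 2 (18.2%) were lower, beside 2.32% of all genes. They were the fructose transporter Slc2a5 at −0.57 ± 0.13 log2 and Slc2a6 at −0.75 ± 0.19 log2. Both were lower in bound than in unbound arrays (−0.92 and −1.95 log2). Of 9 microglia markers tested, 1 was called lower in this comparison (Cx3cr1, −0.64 log2) and 0 higher. The median of these markers was −0.54 log2, and their part in the 2 calls was not tested. Of 8 further genes of pyruvate entry, 1 (12.5%) was higher in bound sleep deprivation and in bound waking against sleep. The shares of all genes were 7.53% and 4.68%. It was Pdhx, the subunit that anchors dihydrolipoamide dehydrogenase in the complex, at 0.59 ± 0.15 and 0.65 ± 0.15 log2. Pdp1, the phosphatase that opposes the kinases, rose in unbound sleep deprivation against sleep (0.49 ± 0.09 log2, adjusted p = 0.00248). Between fractions, 2 of these 8 genes were higher and 3 lower in bound arrays, beside 25.6% and 58.2% of all genes. The smallest p was that of Pdp1, at −1.61 ± 0.07 log2, followed by Dlat at −0.76 ± 0.06 log2. Next came Mpc1, a subunit of the mitochondrial pyruvate carrier, which was higher in bound than unbound arrays (0.59 ± 0.05 log2).

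Of 18 further glycogen genes, 1 (5.56%) was higher and 0 lower in bound sleep deprivation against sleep, beside 7.53% and 6.87% of all genes. At an unadjusted p below 0.05 limma had 2 lower. The call was Phkb, a subunit of phosphorylase kinase, at 0.53 ± 0.11 log2 (adjusted p = 0.00395). In bound waking against sleep 1 (5.56%) was higher, beside 4.68% of all genes. It was Ppp1r3e, a glycogen-targeting subunit of the phosphatase, at 0.79 ± 0.18 log2 (adjusted p = 0.0104). Ppp1r3e was lower in unbound waking against sleep (−0.61 ± 0.16 log2), and the difference between fractions was 1.40 ± 0.22 log2 (adjusted p = 0.00123). Epm2a, laforin, the glycogen phosphatase, fell in unbound sleep deprivation against sleep (−0.89 ± 0.15 log2, adjusted p = 0.00112). Between fractions, 5 of these 18 genes (27.8%) were higher and 10 (55.6%) lower in bound arrays, beside 25.6% and 58.2% of all genes. The smallest p was that of Gsk3b, at −1.07 ± 0.04 log2. Next came Gyg, glycogenin, which primes glycogen, at 1.39 ± 0.10 log2 and Ppp1r3e at 1.19 ± 0.09 log2.

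Of 19 regulators, 1 (5.26%) was higher and 0 lower in bound sleep deprivation against sleep, beside 7.53% and 6.87% of all genes. It was Mlx, the partner of glucose-sensing factors, at 0.46 ± 0.15 log2. Also at an unadjusted p below 0.05, limma had 0 lower. In bound waking against sleep 1 (5.26%) was higher and 1 (5.26%) lower, beside 4.68% and 4.79% of all genes. They were Mlx at 0.59 ± 0.15 log2 and Esrra, a nuclear receptor of energy metabolism, at −0.85 ± 0.18 log2. In unbound sleep deprivation against sleep 2 (10.5%) were higher and 0 lower, beside 4.65% and 3.17% of all genes. They were Egln1, the oxygen-sensing hydroxylase, at 0.33 ± 0.08 log2 and the coactivator Ppargc1a at 0.31 ± 0.08 log2. At an unadjusted p below 0.05 limma had 3 lower.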

How the data were processed

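RNA of 36 samples was measured on mouse whole-genome expression arrays. The authors deposited log2 signals per probe set, made with RMA per the submitters' processing notes (version not given in the sources used here), and they were used without further normalization. Of 45101 probe sets, 34958 named 1 gene and 932 several. Symbols were looked up by Entrez identifier for 34754, which changed 0. Gapdh is measured by its 3′ array control probe set, since its others name several genes. Genes whose mean stayed under the 40th percentile of probe sets in both fractions (4.471 log2 bound, 5.183 log2 unbound) were not tested.

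Differences were tested in limma (version 3.58.1, under R 4.3.3 and data.table, version 1.17.8) using an intensity trend; the procedure was checked on simulated data. State contrasts were fitted on the 18 arrays of a fraction. Bound against unbound, and differences between fractions, were fitted on per-animal differences, since bound and unbound samples of an animal carry 1 number in the labels; the 2 arrays of an animal correlated at −0.0032 to 0.0848 in their deviations from group means (other animals −0.00257 on average), and 8 of 18 matched best with their own. Fold changes are 2 to the power of the log2 difference. Alternatives were quantile normalization, once of all arrays and once by fraction, no filter, the mean of a gene's probe sets, no trend, leaving out 3 animals, each other probe set, and the block or its absence. Promoters are from RefSeq. Figures used Python 3.11.15 and matplotlib 3.10.9. Values by animal are given for members called between states, and up to 3 called genes of each wider list and contrast, by smallest p, may be named. Members and lists were chosen with earlier results of these data known.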

Additional observations from a re-analysis of the deposited data

Results flagged for a closer look

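In 15 of 198 groups of 6 arrays, 1 animal lay apart from the others by more than Dixon's critical share of the group's range; chance flags about 1 in 20 groups. The unbound array of waking animal 3 accounted for 4 of them: it was low for Pfkp (10.98 log2, others 11.24 to 11.39), Pgam1 (13.04, others 13.13 to 13.17) and Eno2 (13.18, others 13.32 to 13.39), and high for Pdk1 (10.34, others 9.63 to 9.87). That array also had the highest Gapdh 3′ minus 5′ signal of the unbound arrays, 1.482 log2. Its part in these values was not tested.

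Other arrays with a low value were Slc2a3 in bound waking animal 3 (8.35 log2, others 9.38 to 9.97), Hk1 in bound waking animal 6 (9.25), Pfkfb2 in unbound sleep deprived animal 8 (6.81, others 8.01 to 8.65) and Pdha1 in unbound sleep animal 2 (10.61). High values were Pfkfb3 in bound waking animal 1 (9.49 log2, others 8.32 to 8.73), Aldoa in bound sleep animal 2 (13.46), Pgam1 in unbound sleep deprived animal 10 (13.34) and Ldhb in unbound sleep deprived animal 9 (13.62). Pdha1 was high in bound sleep animal 6 (10.38 log2), Pdk2 in unbound sleep deprived animal 11 (11.08) and Ppp1r3c in bound sleep deprived animal 7 (7.36, others 6.07 to 6.54).

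The change between states differed between bound and unbound arrays, by the test of that difference, for 3 genes: Pfkfb3 in sleep deprivation minus sleep (−1.19 log2), Pygm in waking minus sleep (−1.23 log2) and Pdk1 in sleep deprivation minus waking (−1.32 log2).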

How the results depend on the processing

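Counts of called members below are set against the reported ones of 2 (bound waking against sleep), 2 (bound sleep deprivation against waking), 3, 1 and 4 (unbound sleep deprivation against sleep, waking against sleep, and sleep deprivation against waking). With the mean of a gene's probe sets they were 1 in bound waking against sleep, 7 in unbound sleep deprivation against sleep, 3 in unbound waking against sleep and 2 instead of 1 in the difference between fractions for waking. In that order, limma called 1456, 1296, 1381 and 997 of all 13235 genes then tested. Under both quantile normalizations they were 1 in bound sleep deprivation against waking, 0 in unbound sleep deprivation against waking and 2 in the fraction difference for waking. The calls among all genes were 719, 584 and 661 of 13932 when all arrays were normalized, and 718, 582 and 672 of 13926 by fraction. Without the filter they were 6 in unbound sleep deprivation against sleep and 2 in unbound waking against sleep, beside 2482 and 2382 of all 18194 genes. Without the trend they were 1 in bound and 1 in unbound sleep deprivation against waking and 0 in unbound waking against sleep. Of all 13925 genes, 765, 1116 and 953 were then called. Without the 3 animals they were 0 in bound sleep deprivation against waking and 0 in unbound waking against sleep, beside 234 and 532 of 13925 genes. Bound against unbound stayed at 31 to 32. Bound sleep deprivation against sleep, with 3 higher and 3 lower reported, also depended on the processing. Calls lost there included Pygm under both quantile normalizations, Slc16a1 with the mean of probe sets and Gbe1 without the 3 animals. Pdk3, not called in the main fit, was called higher in limma without the filter, with the mean of probe sets and without the 3 animals (0.36, 0.36 and 0.39 log2, adjusted p = 0.0475, 0.0392 and 0.0372). Sleep and waking share numbers 1 to 6, but same-numbered arrays correlated at −0.000945 to 0.0868 (bound) and −0.00503 to 0.1 (unbound), and 2 and 3 of 6 sleep arrays matched best with their own number, so the numbers are not taken as pairs. With the number as a block, 4 members were called in bound waking against sleep, 3 higher (Hk2, Pgam1 and Pkm, adjusted p = 0.0308, 0.028 and 0.0195) and 1 lower (Slc16a1), Pygm not being called (adjusted p = 0.0933), and 0 in unbound waking against sleep. Of all 13925 genes, that block left 1303 called in bound and 464 in unbound waking against sleep. Without the animal block, 2 members and 868 of 13925 genes were called in the fraction difference for waking.

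Single values turned sign as follows. With the mean of probe sets, Pdhb in bound and Pdk1 in unbound sleep deprivation minus sleep stood at −0.44 and −0.67 log2, and the fraction differences of sleep deprivation minus waking for Pdk1 and Slc16a1 at 0.0819 and 0.67 log2. In other probe sets, Slc16a1 stood at 0.39 in bound sleep deprivation minus sleep, Pdk1 at 0.20 in bound sleep deprivation minus waking and at 0.39 and 0.26 in its fraction difference. Aldoa stood at −0.0859 in unbound sleep deprivation minus waking and 0.12 in bound minus unbound, and Pfkfb2 at 0.006777 in the last. After quantile normalization over all arrays, Gys1 and Hk2 in bound minus unbound stood at 0.28 and 0.0523 log2. The cause was not tested.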

Other observations

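The dim second probe set of Slc16a1 was called in the unbound arrays, where the bright one was not. It stood at 0.79 log2 for waking minus sleep (adjusted p = 0.00549) and at −0.90 log2 for sleep deprivation minus waking (adjusted p = 0.00206), while the bright probe set stood at −0.33 and 0.21 log2. The difference between fractions of the dim probe set was −1.01 log2 for waking minus sleep (adjusted p = 0.0164) and 1.52 log2 for sleep deprivation minus waking (adjusted p = 0.0015). Its mean of 4.49 log2 in unbound arrays lay below the floor of 5.183 log2.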
